A study of Mus musculus with 4 samples.

Results

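The mRNAs Myc, Ccnd2, Actb and Map1b, known from earlier work as ligands of the RNA-binding protein Caprin-1, were followed through RNA immunoprecipitation libraries of a mouse mammary carcinoma line. They were taken by gene symbol and made up 4 of the 12967 symbols with values. The cells were 4T1, a metastatic line derived from a BALB/c mammary tumour, with a stable shRNA against the ceramide synthase CerS4 (shCerS4) or a stable control shRNA (shSCR). Each line was precipitated with anti-Caprin-1 or with IgG, which gave 4 groups of 1 library each: shCerS4 Caprin-1, shSCR Caprin-1, shCerS4 IgG and shSCR IgG. All 4 cultures grew in medium with puromycin, and all libraries were made from polyadenylated RNA with a SMARTER kit. Each line was a stable line with no second clone or hairpin among these groups, and no library of unprecipitated RNA was analysed here. Cers4 had no value, so the knockdown was not checked. The study's main question was how CerS4 knockdown changes the mRNAs bound to Caprin-1, with PD-L1 as the binding partner of interest.

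Caprin-1, also called RNG105, binds mRNAs and enters stress granules and neuronal RNA granules together with G3BP proteins, and it is known for repressing translation of mRNAs it carries. MYC is a transcription factor that drives growth and proliferation, and its mRNA is short-lived. Cyclin D2, the product of Ccnd2, activates CDK4 and CDK6 so that the retinoblastoma protein is phosphorylated and cells enter S phase. Beta-actin, from Actb, is the main building block of the actin cytoskeleton in non-muscle cells, and its mRNA is transported to the cell edge. MAP1B binds and stabilises microtubules and is best known from growing axons.

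Levels are given as CPM, reads scaled so that every library has the same total, so a level is a share of a library and not an amount of RNA recovered. Estimated depth was 24.67 and 27.03 M reads in the shCerS4 and shSCR Caprin-1 libraries, and 19.67 and 19.83 M reads in the shCerS4 and shSCR IgG libraries. At these depths 3 reads, the limit that a count of 0 allows, correspond to 0.111 to 0.152 CPM. Intervals in brackets are 95% counting intervals. They cover counting error only, since reads without molecular identifiers are not independent molecules and no group had a second library. No significance test was possible, and no difference has a replicate check. A gene is called past 2-fold where its ratio reached 2-fold in either direction with an interval that left out 0, and 10283 symbols with a mean of at least 5 CPM were compared, all 4 mRNAs among them. In bulk RNA of this kind, fewer cells carrying an mRNA and less of it per cell cannot be told apart.

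The labelled cell type was checked against 6 epithelial markers, of which 6 had values. Their summed level was 6160 and 9870 CPM in the shCerS4 and shSCR Caprin-1 libraries and 4060 and 5740 CPM in the shCerS4 and shSCR IgG libraries. The markers did not run together between the lines: with Caprin-1 the shCerS4 over shSCR log2 ratio was −1.3 for Krt8, −0.85 for Krt18 and −0.33 for Krt7, against 1.06 for Cdh1, 0.35 for Krt19 and 0.12 for Epcam. Fibroblast markers had values for 3 of 5 genes and summed to 20.1 and 24.4 CPM in the shCerS4 and shSCR Caprin-1 libraries, and to 43.7 and 65.9 CPM in the shCerS4 and shSCR IgG libraries. Cd68 was the 1 of 5 leukocyte markers with a value, at 14.6 and 49.1 CPM in the shCerS4 and shSCR Caprin-1 libraries and 14.9 and 25.9 CPM in the shCerS4 and shSCR IgG libraries. Endothelial markers (1 of 3 with a value) summed to 0 CPM in 3 libraries and 0.666 CPM in the shSCR IgG library, and neuronal markers (3 of 4) to at most 3.07 CPM. The part of these markers in the results below was not tested.

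Myc lies on chromosome 15 (gene 17869, GRCm38, positions 61985341 to 61990361) and had 4 transcript rows. Its summed level was 365.5 CPM [358.0, 373.1] in the shCerS4 Caprin-1 library and 229.6 CPM [223.9, 235.4] in the shSCR Caprin-1 library. The IgG libraries held 386.8 CPM [378.1, 395.6] in shCerS4 cells and 209.0 CPM [202.7, 215.5] in shSCR cells. Both shCerS4 libraries were thus above both shSCR libraries, whichever antibody was used. The log2 ratio of shCerS4 over shSCR was 0.67 [0.62, 0.72] in the Caprin-1 precipitates and 0.89 [0.83, 0.94] for IgG, which is 1.59-fold and 1.85-fold. Of all genes compared, 84.6% and 92.2% had a lower ratio in these same precipitates.

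Ccnd2 lies on chromosome 6 (gene 12444, positions 127125162 to 127152188) and had 1 row. It stood at 90.25 CPM [86.54, 94.07] in the shCerS4 Caprin-1 library and 37.7 CPM [35.42, 40.09] in the shSCR Caprin-1 library. With IgG the levels were 267.4 CPM [260.2, 274.7] in shCerS4 cells and 133.6 CPM [128.5, 138.8] in shSCR cells. Here the antibody separated the libraries, since both IgG libraries were above both Caprin-1 libraries, and within each antibody shCerS4 was above shSCR. shCerS4 over shSCR was 2.39-fold with Caprin-1, or 1.26 [1.15, 1.37] on the log2 scale. With IgG it was 2.0-fold, or 1.0 [0.93, 1.07], which sat at the 2-fold line itself.

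Actb lies on chromosome 5 (gene 11461, positions 142903115 to 142907976) and had 1 row. Its levels were 4602 CPM [4575, 4629] in the shCerS4 Caprin-1 library and 6629 CPM [6599, 6660] in the shSCR Caprin-1 library. With IgG it reached 2871 CPM [2848, 2895] in shCerS4 cells and 3603 CPM [3577, 3630] in shSCR cells. Its order was the opposite of that of Ccnd2 on both sides: both Caprin-1 libraries were above both IgG libraries, and shCerS4 was below shSCR within each antibody. The log2 ratio of shCerS4 over shSCR was −0.53 [−0.54, −0.52] with Caprin-1 and −0.33 [−0.34, −0.31] with IgG.

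Map1b lies on chromosome 13 (gene 17755, positions 99421464 to 99516602) and had 1 row. Its levels were 29.8 CPM [27.68, 32.03] in the shCerS4 Caprin-1 library and 17.83 CPM [16.28, 19.5] in the shSCR Caprin-1 library. The IgG libraries held 71.16 CPM [67.48, 74.99] in shCerS4 cells and 70.2 CPM [66.56, 73.98] in shSCR cells. The IgG levels of the cell lines overlapped within counting error, at a log2 ratio of 0.02 [−0.09, 0.13], while the Caprin-1 precipitates gave 0.74 [0.57, 0.91]. With libraries scaled to their totals, Map1b was the 1 of the 4 mRNAs whose shCerS4 over shSCR interval in the IgG precipitates held 0. Over the 4 other scalings described below, this Map1b ratio ranged from −0.08 to 0.23.

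**Figure D1:**
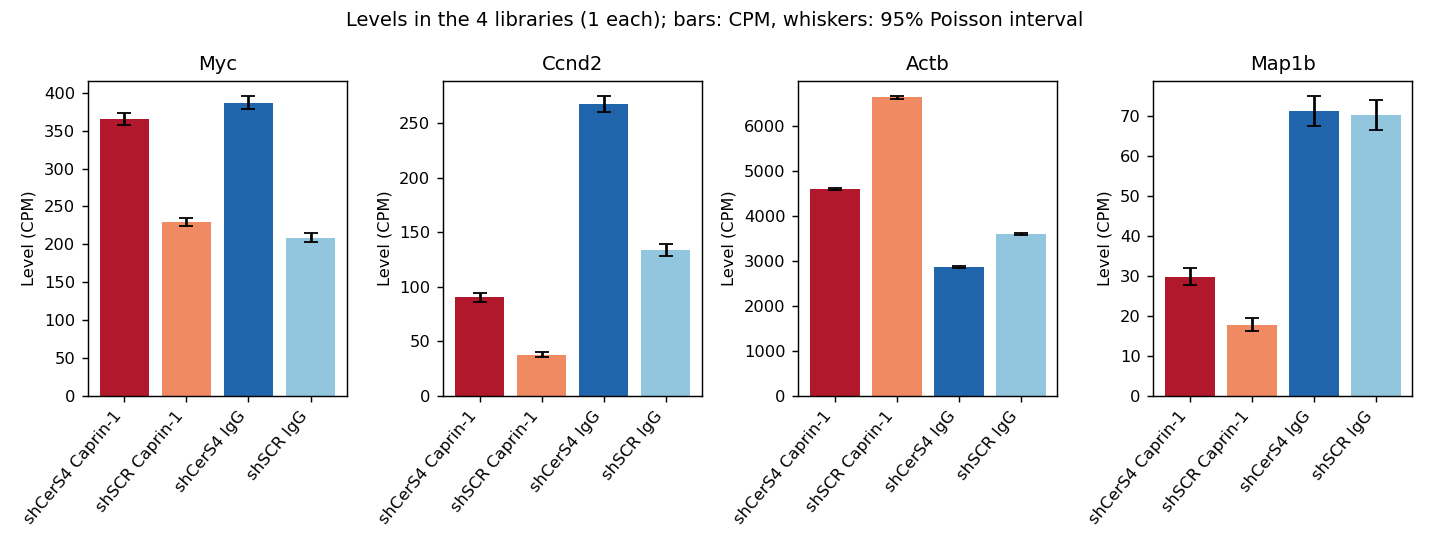
Levels of Myc, Ccnd2, Actb and Map1b in CPM (vertical axes, a separate scale for each gene) in the shCerS4 Caprin-1, shSCR Caprin-1, shCerS4 IgG and shSCR IgG libraries; bars are single libraries and whiskers 95% Poisson intervals. Myc follows the cell line, Actb is highest in the Caprin-1 bars, and Ccnd2 and Map1b are highest in the IgG bars.

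Over the whole table, shCerS4 over shSCR Caprin-1 precipitates had 6.24% of genes past 2-fold upward and 4.95% downward, 11.2% together. Among the 4 mRNAs 1 was higher, Ccnd2, and none was lower. For the IgG precipitates the shares were 5.68% upward and 5.36% downward, and again Ccnd2 was the 1 member called. That call was lost, leaving 0 of the 4, under trimmed-mean, upper-quartile and median-of-ratios scaling and with 5 reads added. The median of the 4 ratios was 0.71 in the Caprin-1 precipitates, where the median of all genes was 0.145, and 0.45 in the IgG precipitates, where that of all genes was 0.102. Ccnd2 and Myc were higher in shCerS4 cells with either antibody, and Map1b was higher with Caprin-1 at 0.74, where IgG gave 0.02. With Caprin-1 the ratios of Map1b and Myc differed by 0.07 [−0.1, 0.24] on the log2 scale, within counting error.

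Caprin-1 over IgG, the enrichment measure of the design, separated the 4 mRNAs widely. Actb was higher in the Caprin-1 than in the IgG precipitate, by 1.6-fold in shCerS4 cells (log2 0.68 [0.67, 0.7]) and 1.84-fold in shSCR cells (log2 0.88 [0.87, 0.89]). Myc stood close to 0, at −0.08 [−0.13, −0.04] in shCerS4 cells and 0.14 [0.08, 0.19] in shSCR cells. Ccnd2 was 2.96-fold lower with Caprin-1 than with IgG in shCerS4 cells (log2 −1.57 [−1.64, −1.5]) and 3.54-fold lower in shSCR cells (log2 −1.82 [−1.93, −1.72]). Map1b was 2.39-fold lower in shCerS4 cells (log2 −1.26 [−1.39, −1.13]) and 3.93-fold lower in shSCR cells (log2 −1.98 [−2.13, −1.83]). None of the 4 was past 2-fold upward in Caprin-1 over IgG (Actb passed it in shSCR cells under other scalings, given below). Few genes were in all, 0.924% in shCerS4 and 1.68% in shSCR cells, so this count says little about the description as Caprin-1 targets. For Ccnd2 and Map1b the ratio ran the other way.

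In shCerS4 cells Caprin-1 over IgG had 0.924% of all genes past 2-fold upward and 8.02% downward, 8.95% together. The shSCR cells had 1.68% upward and 13.0% downward, 14.7% together. Of the 4 mRNAs, 2 were lower and 0 higher in each cell line. The median over the 4 was −0.67 in shCerS4 and −0.84 in shSCR cells, against −0.106 and −0.132 over all genes in these lines. Actb was above 94.5% of genes in shCerS4 cells and 96.6% in shSCR cells, although it did not reach 2-fold. Only 1.2% and 1.4% of genes lay below Ccnd2 in shCerS4 and shSCR cells, and 3.7% and 0.7% lay below Map1b. Myc was near the middle, above 51.7% and 65.2% of genes.

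**Figure D2:**
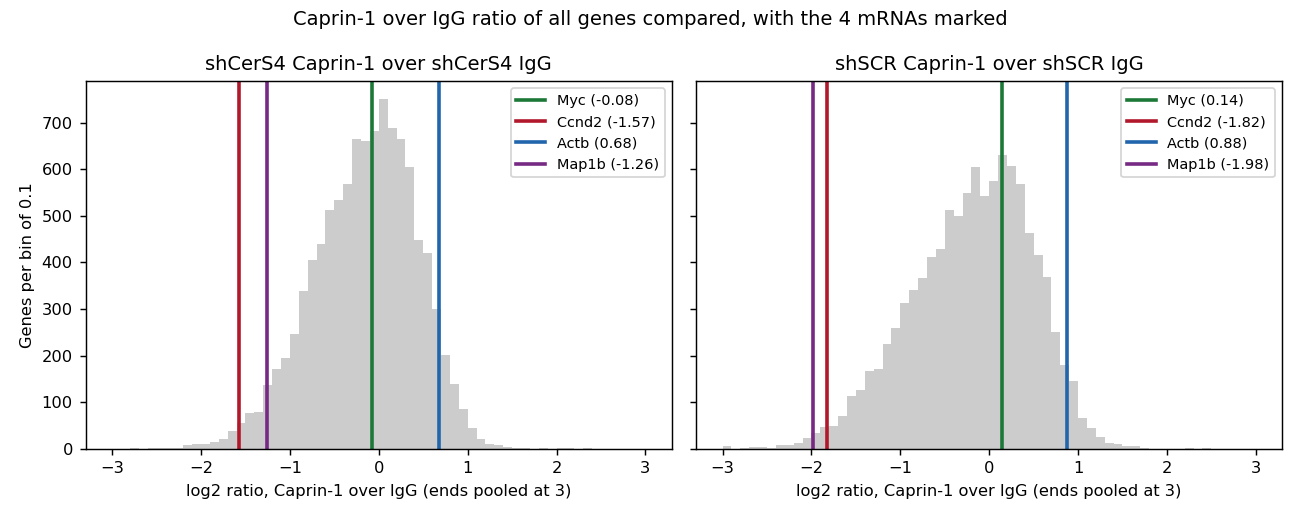
Histograms of the Caprin-1 over IgG log2 ratio (horizontal axis, bins of 0.1) over the 10283 genes compared, in shCerS4 cells (left) and shSCR cells (right), with coloured lines at the 4 mRNAs. Actb lies in the upper tail, Myc near the middle, and Ccnd2 and Map1b in the lower tail of both cell lines.

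Because the mRNAs share libraries, differences between them within a cell line do not depend on how the libraries were scaled. Relative to Actb, the log2 ratio of Myc differed by −0.76 [−0.81, −0.72] in shCerS4 cells and −0.74 [−0.8, −0.69] in shSCR cells. Relative to Actb, Ccnd2 was 4.75-fold lower in shCerS4 and 6.52-fold lower in shSCR cells, and Map1b 3.83-fold and 7.24-fold lower. The order Actb, Myc, then Ccnd2 and Map1b held in both lines. Map1b lay above Ccnd2 in shCerS4 cells by 0.31 [0.16, 0.46], whereas in shSCR cells their difference of −0.15 [−0.34, 0.03] was within counting error.

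The change of the Caprin-1 over IgG ratio between the cell lines, shCerS4 over shSCR, was small for 3 of the 4 mRNAs. It was −0.22 [−0.29, −0.14] for Myc, −0.2 [−0.22, −0.18] for Actb and 0.26 [0.13, 0.39] for Ccnd2. Map1b had the largest of the 4, at 0.72 [0.52, 0.92], or 1.65-fold, its ratio being nearer to 0 in shCerS4 cells, and 97.9% of all genes had a lower value. None of the 4 passed 2-fold, and over all genes the shares were 0.622% upward and 0.34% downward, 0.963% together. Between Myc and Actb the difference was −0.02 [−0.09, 0.06], within counting error. Map1b exceeded Ccnd2 by 0.46 [0.23, 0.7] and Myc by 0.94 [0.73, 1.15]. The 2 cell lines each contribute 1 IgG and 1 Caprin-1 library to these values.

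Caprin1 mRNA, which encodes the precipitated protein, had 309.7 and 391.8 CPM in the shCerS4 and shSCR Caprin-1 libraries and 404.9 and 552.2 CPM in the shCerS4 and shSCR IgG libraries. Its Caprin-1 over IgG log2 ratio was −0.39 in shCerS4 and −0.5 in shSCR cells. The mRNA thus stood lower in shCerS4 than in shSCR cells with either antibody, at log2 ratios of −0.34 with Caprin-1 and −0.45 with IgG.

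The 4 Myc rows, 1 for each of its 4 curated RefSeq transcripts, fell into 2 pairs with identical values in every library. Rows of the first pair together made up 69.5% and 66.0% of Myc in the shCerS4 and shSCR Caprin-1 libraries, and 74.5% and 69.5% in the shCerS4 and shSCR IgG libraries. The pairs did not move alike. With Caprin-1 over IgG the first pair gave −0.18 [−0.23, −0.13] in shCerS4 cells and 0.06 [−0.01, 0.13] in shSCR cells. For the second pair the values were 0.18 [0.09, 0.26] and 0.29 [0.19, 0.39] in these lines. The second pair therefore exceeded the first by 0.36 [0.26, 0.46] in shCerS4 cells and 0.23 [0.11, 0.35] in shSCR cells, and in shCerS4 cells the near-zero ratio of summed Myc combined pairs on different sides of 0. Between cell lines the first pair was further up in shCerS4, at 0.75 with Caprin-1 and 0.99 with IgG, and the second pair stood at 0.51 and 0.63. Identical rows occurred in 26 symbols. Whether such rows split reads evenly or count them in duplicate could not be settled from the values. In the second case the summed Myc level would be too high by the duplicated share, its ratios would stay as given, and its intervals would be wider.

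Paralogs of the 4 mRNAs were set beside them, with 11 genes listed, 8 having values and 5 passing the filter. Ccnd1, the gene of cyclin D1, ran against Ccnd2 between the cell lines. It had 1174 and 2222 CPM in the shCerS4 and shSCR Caprin-1 libraries, and 1800 and 3142 CPM in the shCerS4 and shSCR IgG libraries. Its log2 ratio of shCerS4 over shSCR was −0.92 [−0.94, −0.9] with Caprin-1 and −0.8 [−0.82, −0.78] with IgG. The shift of Ccnd2 relative to Ccnd1 was thus 2.18 [2.07, 2.29] with Caprin-1 and 1.8 [1.73, 1.87] with IgG, or 4.53-fold and 3.49-fold. Ccnd3, the third D-type cyclin, had 104.7 and 96.65 CPM in the shCerS4 and shSCR Caprin-1 libraries and 79.65 and 68.58 CPM in the shCerS4 and shSCR IgG libraries. Its shCerS4 over shSCR ratios were 0.12 with Caprin-1 and 0.22 with IgG, between those of its paralogs.

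The D-type cyclins also differed in Caprin-1 over IgG. Ccnd1 was lower with Caprin-1, at −0.62 in shCerS4 and −0.5 in shSCR cells, and Ccnd3 was higher, at 0.39 [0.3, 0.49] and 0.49 [0.4, 0.59]. Ccnd2 minus Ccnd1 was −0.95 [−1.03, −0.88] in shCerS4 cells and −1.32 [−1.43, −1.22] in shSCR cells. It lay below Ccnd3 by 3.89-fold and 4.99-fold in the same lines. The 3 cyclins were thus in the order Ccnd3, Ccnd1, Ccnd2 in both cell lines, with no overlap of intervals.

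Actg1, the gene of gamma-actin, shared part of the Actb pattern. It had 1429 and 2909 CPM in the shCerS4 and shSCR Caprin-1 libraries and 1240 and 2404 CPM in the shCerS4 and shSCR IgG libraries. The shCerS4 over shSCR ratio was −1.03 [−1.04, −1.01] with Caprin-1, past 2-fold, and −0.96 [−0.98, −0.93] with IgG. Caprin-1 over IgG was 0.2 in shCerS4 and 0.27 in shSCR cells, below that of Actb by 1.39-fold and 1.52-fold. The coding sequences of these 2 actins are nearly alike, and how reads shared by them were assigned is not given in the sources used here, so their separate levels are uncertain. Acta1 and Acta2, the skeletal and smooth muscle actins, did not pass the filter, with at most 1.20 and 0.915 CPM in any library.

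Map1s, which like Map1b encodes a microtubule-binding protein of the MAP1 family, had 75.49 and 70.89 CPM in the shCerS4 and shSCR Caprin-1 libraries and 60.08 and 51.54 CPM in the shCerS4 and shSCR IgG libraries. It was higher with Caprin-1 than with IgG, at 0.33 [0.22, 0.44] in shCerS4 and 0.46 [0.35, 0.57] in shSCR cells. Map1b was 3.0-fold and 5.41-fold below it in these ratios, and the change between the cell lines differed by 0.85 [0.6, 1.1]. Map1a did not pass the filter, with 1.35 and 1.93 CPM in the shCerS4 and shSCR Caprin-1 libraries and 0.409 and 8.12 CPM in the shCerS4 and shSCR IgG libraries. In shSCR cells its Caprin-1 over IgG ratio was as low as that of Map1b, with Map1b minus Map1a at 0.09 [−0.38, 0.6]. That difference was −2.91 [−4.31, −1.82] in shCerS4 cells, where the IgG library held an estimated 8 reads of Map1a. Mycl, the gene of L-MYC, had 6.49 and 5.70 CPM in the shCerS4 and shSCR Caprin-1 libraries and 7.73 and 9.13 CPM in the shCerS4 and shSCR IgG libraries. Its shCerS4 over shSCR ratios of 0.19 [−0.14, 0.52] with Caprin-1 and −0.24 [−0.56, 0.08] with IgG both held 0, and Myc exceeded it by 1.13 [0.8, 1.45] with IgG.

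**Figure D3:**
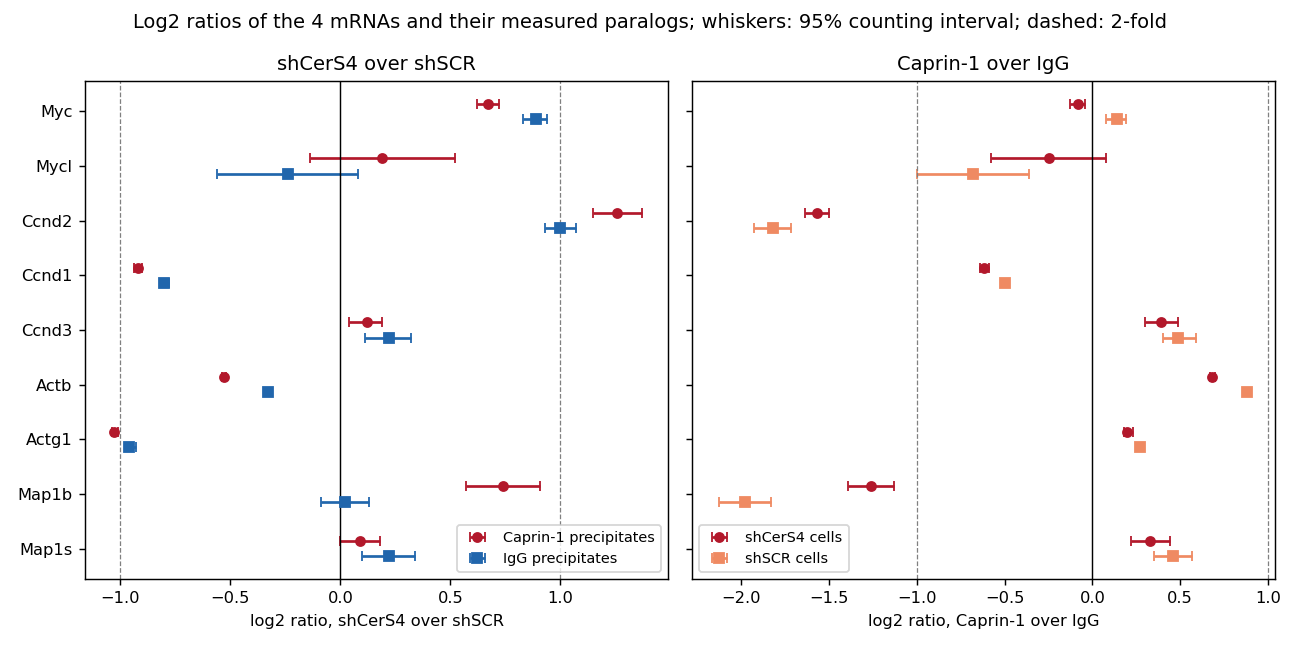
Log2 ratios (horizontal axes) of the 4 mRNAs and their 5 compared paralogs: shCerS4 over shSCR in Caprin-1 and IgG precipitates (left), and Caprin-1 over IgG in shCerS4 and shSCR cells (right); points are single ratios, whiskers 95% counting intervals, dashed lines 2-fold. Ccnd2 and Ccnd1 lie on opposite sides of 0 on the left, and Ccnd2 and Map1b are the points beyond 2-fold on the right.

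The genomic span of a gene, introns included, went with its Caprin-1 over IgG ratio, and the 4 mRNAs differ in span. When genes were split into 5 groups by span, the median ratio in shCerS4 cells was 0.25 in the shortest group, then 0.07, −0.08 and −0.31, and −0.57 in the longest. For shSCR cells the medians were 0.34, 0.08, −0.12, −0.41 and −0.76, and the share of genes lower past 2-fold was 2.19% in the shortest group and 35.5% in the longest. Myc and Actb, with spans of 5021 and 4862 bases, belong to the shortest group, Ccnd2 with 27027 bases to group 3, and Map1b with 95139 bases to the longest. The part of span in the ratios of these mRNAs was not tested.

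Against genes of their own span group, Actb stayed above Myc and Myc above the other 2, while Map1b lay above Ccnd2 in both lines. Actb was above its group's median by 0.43 in shCerS4 and 0.54 in shSCR cells, and Myc deviated by −0.33 and −0.2. Ccnd2 deviated by −1.48 in shCerS4 and −1.71 in shSCR cells, where 0.7% and 0.8% of its group lay lower. Map1b deviated by −0.68 and −1.22, with 9.4% and 1.9% of its group lower. Ccnd3, a gene of the longest group, instead lay above that median by 0.97 in shCerS4 and 1.25 in shSCR cells.

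**Figure D4:**
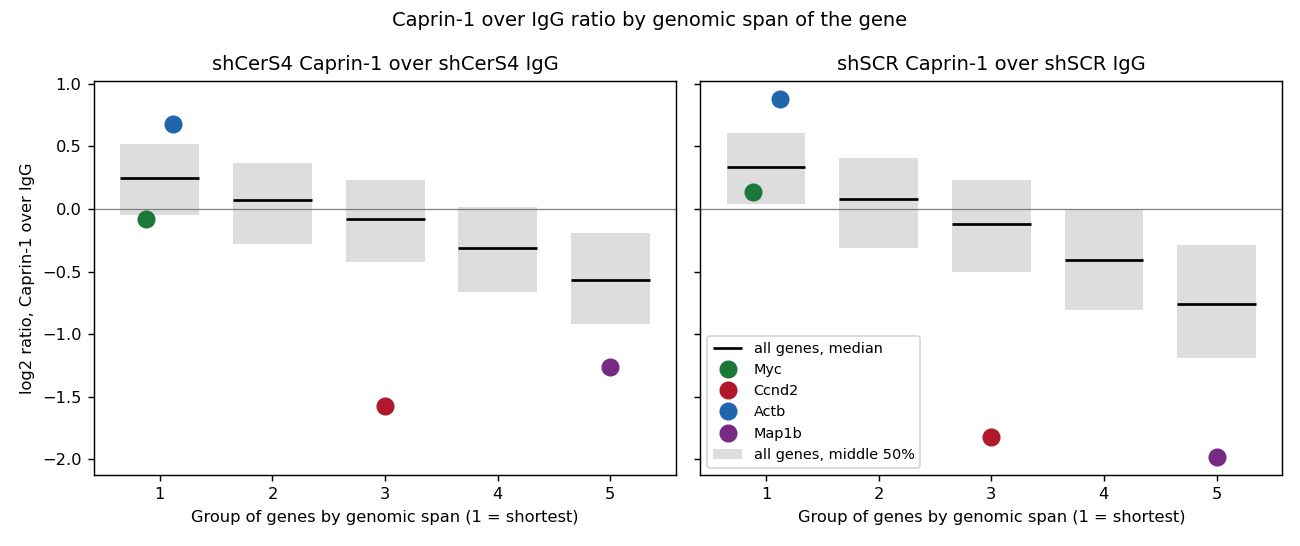
Caprin-1 over IgG log2 ratio (vertical axis) by group of genomic span (horizontal axis, 1 shortest) in shCerS4 cells (left) and shSCR cells (right); black lines are medians of all genes, grey boxes the middle 50%, and points the 4 mRNAs. Ccnd2 and Map1b lie below the grey box of their group, Actb above it, and Myc below the median of its group.

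Genes with the most similar profile over the 4 libraries were then listed, by the largest difference from the member at any library on the log2 scale after centring, among 7608 genes. For Myc they were Mocs2, Slc39a11, Armc10 and Pum3, at differences of 0.03 to 0.06. Those of Ccnd2 were Hivep1, Syne1, Dennd11 and Zfp704, at 0.1 to 0.16. For Actb the list read Hpcal1, Fah, Wbp2 and Psmb3, at 0.03 to 0.06, and for Map1b it read Med13l, Smg1, Dst and Dennd1b, at 0.06 to 0.08. Genes like Ccnd2 spanned 34761 to 530501 bases and those like Map1b 113130 to 400775 bases. With 4 libraries a profile has few free values, and such a match is a description alone.

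The MYC target list of 28 genes held targets with roles such as ribosome production and nucleotide supply. It also held Max, Mxd1, Mxd4 and Mxi1 of the MYC partner network, and all 28 were compared. For shCerS4 over shSCR, none passed 2-fold with Caprin-1, where 6.24% of all genes were higher and 4.95% lower, and 1 was higher with IgG, near the 5.68% of all genes. This was Mxd4, a MAX-binding antagonist of MYC, with 21.5 CPM in shCerS4 and 10.69 CPM in shSCR cells, a log2 ratio of 1.01 [0.77, 1.25]. Like Ccnd2, it sat at the 2-fold line with IgG. Trimmed-mean, upper-quartile and median-of-ratios scaling lowered these IgG ratios for all genes together, to medians of 0.006 to 0.029. The list medians of 0.07 with Caprin-1 and 0.04 with IgG were below the 0.145 and 0.102 of all genes, where Myc itself was at 0.67 and 0.89. In Caprin-1 over IgG, Ncl, which encodes the nucleolar protein nucleolin, was lower in shCerS4 cells, at 784.7 CPM with Caprin-1 and 1792 CPM with IgG, a log2 ratio of −1.19. Its ratio in shSCR cells was −0.51. Tfrc, the transferrin receptor gene, was lower in shSCR cells, at 86.36 CPM with Caprin-1 and 188.4 CPM with IgG, a log2 ratio of −1.13. Ldha, which encodes lactate dehydrogenase A, stood at 0.97 and 0.88 in shCerS4 and shSCR cells, short of 2-fold.

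Of 20 genes of the cyclin D and RB pathway, 17 had values and 15 were compared. In shCerS4 over shSCR, 0 were higher and 3 lower with Caprin-1, and 0 were higher and 4 lower with IgG. Over all genes 6.24% were higher and 4.95% lower with Caprin-1, and 5.68% and 5.36% with IgG. The list medians were −0.44 and −0.42, against 0.145 and 0.102 for all genes. Cdkn1a, the CDK inhibitor p21, had 7.62 and 36.73 CPM in the shCerS4 and shSCR Caprin-1 libraries and 7.12 and 33.28 CPM in the shCerS4 and shSCR IgG libraries, log2 ratios of −2.27 and −2.22. Cdk6, a kinase partner of D-type cyclins, had 100.8 and 339.7 CPM in the shCerS4 and shSCR Caprin-1 libraries and 361.2 and 1506 CPM in the shCerS4 and shSCR IgG libraries. Its log2 ratios were −1.75 and −2.06. Ccnd2 stood higher in shCerS4 cells. No compared gene of the list was higher past 2-fold, as few genes were in all, so that count does not set Ccnd2 apart. Cdk6 resembled Ccnd2 in Caprin-1 over IgG, at −1.84 in shCerS4 and −2.15 in shSCR cells. In all, 3 and 2 genes of the list were lower in these lines, where 8.02% and 13.0% of all genes were. E2f2, an E2F activator, and Rbl1, the RB relative p107, were lower in shCerS4 over shSCR IgG precipitates, at −1.68 [−2.15, −1.25] and −1.31 [−1.44, −1.18].

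The actin cytoskeleton list had 24 genes, 23 with values and 22 compared. With shCerS4 over shSCR, 0 were higher and 2 lower with Caprin-1, Actg1 and Arpc5, and 0 higher and 1 lower with IgG. Of all genes 6.24% were higher and 4.95% lower with Caprin-1, and 5.68% and 5.36% with IgG, so these counts say little about the list. Arpc5, a subunit of the ARP2/3 actin nucleator, had log2 ratios of −1.36 with Caprin-1 and −1.07 with IgG. Profilin, from Pfn1, which delivers actin monomers, was near Actb in all comparisons: −0.68 and −0.49 in shCerS4 over shSCR with Caprin-1 and IgG, and 0.75 and 0.94 in Caprin-1 over IgG in shCerS4 and shSCR cells. Lower with Caprin-1 than with IgG were 1 gene in shCerS4 cells and 2 in shSCR cells, where 8.02% and 13.0% of all genes were lower. Myh9, the heavy chain of non-muscle myosin, stood at −1.18 in shCerS4 and −1.31 in shSCR cells, and Flna, the actin crosslinker filamin A, at −0.67 and −1.19. The list medians of −0.08 in shCerS4 and 0.14 in shSCR cells were near 0, and Actb was above both.

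Among 21 microtubule proteins, all had values and 18 were compared. In shCerS4 over shSCR, 1 was higher and 5 lower with Caprin-1, and 2 were higher and 4 lower with IgG. The shares over all genes were 6.24% higher and 4.95% lower with Caprin-1, and 5.68% and 5.36% with IgG. Map6, a microtubule stabiliser, had 21.73 and 6.13 CPM in the shCerS4 and shSCR Caprin-1 libraries and 25.59 and 7.36 CPM in the shCerS4 and shSCR IgG libraries, log2 ratios of 1.82 and 1.8. Stmn1, which encodes the tubulin-sequestering protein stathmin, stood at −1.49 with Caprin-1 and −0.92 with IgG. Tubb6, a beta-tubulin, stood at −1.4 with either antibody. In Caprin-1 over IgG no compared gene of the list was lower past 2-fold in either line. Map1a, which did not pass the filter, stood at −2.07 [−2.56, −1.62] in shSCR cells. Over all genes 8.02% were lower in shCerS4 and 13.0% in shSCR cells, so with 18 genes this count says little. The list medians were 0.27 in shCerS4 and 0.51 in shSCR cells, against −0.106 and −0.132 for all genes. Map1b was at −1.26 and −1.98. Tubb5, the most abundant gene of the list, stood at 0.6 and 0.63. Map1lc3a, which encodes an LC3 protein of autophagosomes first found with MAP1 proteins, was higher with Caprin-1 in shSCR cells, at 1.23 [1.06, 1.41], and at 0.67 in shCerS4 cells.

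Of 11 mRNAs known from neuronal RNG105 granules, 9 had values and 5 were compared. None of the 5 was higher past 2-fold with Caprin-1 over IgG, as few genes were in all (0.924% in shCerS4 and 1.68% in shSCR cells), so the count says little about the list. Creb1, the gene of a cAMP-responsive transcription factor, was lower in shSCR cells, at 62.12 CPM with Caprin-1 and 163.5 CPM with IgG, a log2 ratio of −1.4, and at −0.85 in shCerS4 cells. Map2, a dendritic microtubule protein gene, stood at −0.93 and −0.92 in shCerS4 and shSCR cells. Bdnf, the gene of a neurotrophin, and Atp1b1, a sodium pump subunit gene, stood at 0.16 and 0.32 in shCerS4 cells and 0.36 and 0.12 in shSCR cells.

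The 12 housekeeping mRNAs served as a second yardstick beside Actb, which is itself often used as one. Their median Caprin-1 over IgG ratio was 0.33 in shCerS4 and 0.35 in shSCR cells, and Gapdh, a glycolysis gene, was the highest of those named, at 0.93 and 1.22. Ppia, which encodes cyclophilin A, stood at 0.43 and 0.76. Actb at 0.68 and 0.88 lay within the range of these mRNAs. In shCerS4 over shSCR, Gapdh stood at −0.53 with Caprin-1 and −0.24 with IgG, near the −0.53 and −0.33 of Actb. The housekeeping list did not move together in this comparison, and its medians were −0.17 with Caprin-1 and −0.21 with IgG. Ppia stood at −0.91 and −0.58, and Rplp0, a ribosomal protein gene, at 0.48 and 0.59.

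How the libraries were scaled shifted the Caprin-1 over IgG ratios of all genes together. Scaling by trimmed mean, upper quartile or median of ratios put the median of all genes at 0.031 to 0.049 in these ratios, and setting the housekeeping median to 0 put it at −0.436 in shCerS4 and −0.48 in shSCR cells. Over these 4 alternatives Myc ranged over −0.41 to 0.07 in shCerS4 and −0.21 to 0.31 in shSCR cells, so its side of 0 depended on the scaling. Ccnd2 stayed between −1.9 and −1.41 in shCerS4 and between −2.17 and −1.65 in shSCR cells, and Map1b between −1.58 and −1.1 and between −2.32 and −1.8. Actb stayed above 0, at 0.35 to 0.84 in shCerS4 and 0.53 to 1.06 in shSCR cells, and passed 2-fold in shSCR cells under 3 of the 4. The change between the cell lines hardly moved: Map1b kept to 0.69 to 0.74, Ccnd2 to 0.22 to 0.28, Myc to −0.25 to −0.2 and Actb to −0.23 to −0.18.

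**Figure D5:**
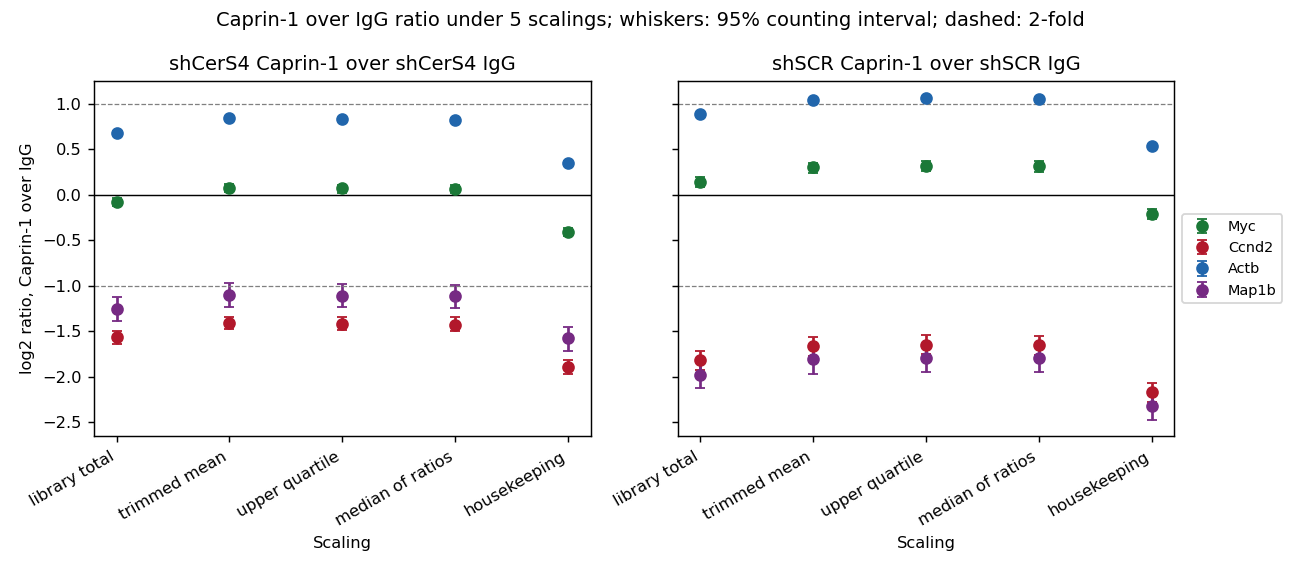
Caprin-1 over IgG log2 ratio (vertical axis) of the 4 mRNAs under 5 scalings (horizontal axis) in shCerS4 cells (left) and shSCR cells (right); points are single ratios, whiskers 95% counting intervals, dashed lines 2-fold. Ccnd2 and Map1b stay below −1 in every scaling, Actb stays above 0, and Myc lies on either side of 0.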

How the data were processed

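The 4 libraries held polyadenylated RNA from 4T1 precipitates, 1 library per group. Reads were aligned to mm10 with STAR in Partek, per the submitters' processing notes, which give no versions; the strand of the reads is not given in the sources used here, so overlapping and antisense genes are not separable. The deposited table, named by the authors as raw counts, holds CPM values per transcript plus an offset of 0.0001, which was subtracted. The design had assumed CPM. Depth came from the spacing of the values; within 0.05 reads, 79.8% to 81.2% of gene values and 28.9% to 31.4% of transcript values under 40 CPM were whole, so no count test was run. The 24393 rows were summed into 12967 symbols, of which 12957 matched RefSeq annotation on GRCm38.

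Log2 ratios were taken on CPM scaled to the library total, with 0.5 reads added to each estimated count, for symbols with a mean of at least 5 CPM. Intervals are exact binomial (Clopper-Pearson) for ratios and exact Poisson for levels, and those of differences combine both intervals. The 5 comparisons were shCerS4 over shSCR in each precipitate, Caprin-1 over IgG in each line, and the change of that ratio between lines. Named genes were the 4 mRNAs, Caprin1, the paralogs, the 4 closest profiles per mRNA (mean of 20 CPM or more), and in each list the gene of highest CPM plus at most 4 with large ratios. The members, the lists and the rule were chosen with earlier results of these data known. Some results that the rule covers are not reported here. Some genes are shared between lists: Tfrc by MYC targets and housekeeping mRNAs, Ccnd1 and Ccnd3 by paralogs and the cyclin D list, Cdk4 by MYC targets and the cyclin D list, Actg1, Map1a and Map1s by paralogs and the cytoskeletal lists, and Map2 by granule and microtubule lists.

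The calculation was tested on simulated data (10283 genes, counting noise alone). In the simulated shCerS4 over shSCR Caprin-1 comparison 95.3% of intervals held the true ratio, 0 unchanged genes were called, 100.0% of genes changed 3-fold were called and 0.0% of those changed 1.5-fold. Alternatives were trimmed-mean, upper-quartile and median-of-ratios scaling, filters of 1 and 20 CPM, 5 added reads, and the most abundant row per symbol; housekeeping scaling was added after seeing the data. Python 3.11.15, numpy 2.4.6, pandas 2.3.3 and scipy 1.17.1 were used.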

Additional observations from a re-analysis of the deposited data

Results flagged for a closer look

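The sign of Caprin-1 over IgG was compared between the cell lines for named genes that passed the filter and are described here. It was opposite, with both counting intervals leaving out 0, for 2 of them. Map1a, below the filter, met the same condition, at 1.65 [0.58, 3.04] in shCerS4 and −2.07 [−2.56, −1.62] in shSCR cells. These differences were not tested, because every group had 1 library. The genes listed as most like Myc also had opposite signs, with at least 1 interval that held 0. Myc stood at −0.08 in shCerS4 and 0.14 in shSCR cells under library-total scaling: trimmed-mean, upper-quartile and median-of-ratios scaling put it above 0 in both lines, and housekeeping scaling below 0 in both. Stmn1 stood at −0.23 in shCerS4 and 0.33 in shSCR cells. Its signs stayed opposite under the first 3 of these scalings, and under housekeeping scaling both were below 0.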

How the results depend on the processing

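Of 160 alternative values of the 4 mRNAs, 97 moved by less than their counting interval, 63 moved by more, and 0 of those past 2-fold changed sign. The count of the 4 past 2-fold in shCerS4 over shSCR IgG precipitates was 1; it was 0 under trimmed-mean, upper-quartile and median-of-ratios scaling and with 5 reads added, since Ccnd2 sat at the line, and 2 (Ccnd2 and Myc) under housekeeping scaling. In shSCR Caprin-1 over IgG it was 3 instead of 2 under the first 3 scalings, with Actb. Counts over all genes moved by over 1.5 times under some alternatives. Over the 8 alternatives, shCerS4 over shSCR in Caprin-1 precipitates gave 642 higher (353 to 1039) and 509 lower (333 to 702), and in IgG precipitates 584 higher (297 to 1016) and 551 lower (338 to 772). Caprin-1 over IgG gave 95 higher (17 to 254) and 825 lower (519 to 1938) in shCerS4 cells, and 173 higher (30 to 461) and 1336 lower (910 to 2562) in shSCR cells. The change between lines gave 64 higher (8 to 277) and 35 lower (3 to 174). Causes were not tested, beyond the filters testing other genes. No paired analysis was possible because each group had 1 library and no replicate could be left out. Counting error is widest for Map1b in the Caprin-1 libraries.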
